A study of Mus musculus with 12 samples.

Results

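The secreted Wnt antagonists measured here are 7 genes, Sfrp1, Sfrp2, Sfrp4, Frzb, Wif1, Dkk2 and Dkk3, of the 32285 genes in the count matrices. They were taken by gene symbol, and their raw unique molecular identifiers (UMIs, which count captured RNA molecules) were summed over the annotated cells of both wells of sorted fibroblasts. The mice of every group, controls included, carried 1 Cre and 1 wild-type allele of Il5 and tdTomato on both R26 alleles (strain R5 x R26tdTomato), and were 8-10 weeks old. The Cre sits at Il5, a cytokine gene of lymphoid cells. Viable cells without surface CD45 or GR-1 were sorted from ankle and wrist joints, tagged with hashtag antibodies by condition and loaded together. The well of experiment 1 held cells of untreated healthy mice, of mice given serum transfer arthritis (STA), and of arthritic mice given Il23mc as well (STA + Il23mc), with 1 hashtag each. The well of experiment 2 held cells of healthy mice and 2 STA hashtags, whose names in the matrix are mild and severe. The labels speak of 4 animals pooled per well against 3 hashtags, and how many mice stand behind a hashtag is not given in the sources used here. The hashtag is the replicate, with 2 healthy, 3 STA and 1 STA + Il23mc, and p-values measure the spread between hashtags, which may be technical in part.

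Wnt proteins are secreted lipid-modified ligands that bind Frizzled receptors and the co-receptors Lrp5 and Lrp6, which stabilises beta-catenin in the classical branch of the pathway. The secreted frizzled-related proteins (Sfrp1, Sfrp2, Sfrp4 and Frzb, also called Sfrp3) carry a Frizzled-like cysteine-rich domain and bind Wnt ligands outside the cell, and Wif1 binds them through a WIF domain. Dkk2 binds Lrp5 and Lrp6 instead of the ligand, and Dkk3 is the divergent member of the Dickkopf family, whose role in Wnt signalling is less clear. In joints these proteins are studied for their part in cartilage, bone and synovial fibroblast biology.

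Of the 7 genes, 4 had an entry in the RefSeq table of promoters (GRCm38.p6), namely Dkk2, Frzb, Sfrp2 and Wif1. The sequences upstream of the start site are shown for Sfrp2, which rose in STA, Wif1, which fell, and Dkk2, which did not pass the test, 5′ to 3′ on the gene's strand and ending 1 base before the first base of the GENCODE M21 gene. The windows are chr3:83766071-83766320 (plus strand, 250 bases) for Sfrp2, chr10:121033754-121033959 (plus strand, 206 bases) for Wif1 and chr3:132085042-132085291 (plus strand, 250 bases) for Dkk2. Capitals mark every match, on either strand, to 1 of 3 motifs. These are the promoter box spelled TATAAA, the core of the sites that Tcf and Lef factors bind, which is CAAAG, and the AP-1 site spelled TGANTCA. None of the motifs overlaps another in these windows.
Sfrp2: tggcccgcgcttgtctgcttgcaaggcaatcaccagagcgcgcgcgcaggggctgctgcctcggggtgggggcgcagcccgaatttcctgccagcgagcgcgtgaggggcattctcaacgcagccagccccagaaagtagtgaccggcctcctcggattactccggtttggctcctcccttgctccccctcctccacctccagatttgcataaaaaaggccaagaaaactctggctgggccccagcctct
Wif1: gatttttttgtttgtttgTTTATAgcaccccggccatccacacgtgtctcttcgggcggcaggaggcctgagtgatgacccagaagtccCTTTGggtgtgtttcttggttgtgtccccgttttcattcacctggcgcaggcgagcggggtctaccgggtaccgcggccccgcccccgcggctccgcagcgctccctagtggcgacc
Dkk2: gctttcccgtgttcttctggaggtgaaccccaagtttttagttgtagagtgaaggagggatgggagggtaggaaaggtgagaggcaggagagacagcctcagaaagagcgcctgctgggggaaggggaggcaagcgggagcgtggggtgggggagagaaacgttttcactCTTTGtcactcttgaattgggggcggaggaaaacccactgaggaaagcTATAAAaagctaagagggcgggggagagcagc
The Sfrp2 window held none of the 3 motifs. Counted from the leftmost letter of the match, the Dkk2 window held TATAAA 32 bases before the gene and CAAAG on the minus strand 80 bases before it. The Wif1 window held both motifs on the minus strand, 188 and 117 bases before the gene. Among all 32851 RefSeq windows of 250 bases, 12.4% held TATAAA, 48.6% CAAAG and 6.75% TGANTCA, and of windows of 206 bases 9.38%, 43.1% and 5.74%. The G and C share was 63.6% for Sfrp2, 61.7% for Wif1 and 55.6% for Dkk2, against medians of 52.4% (250 bases) and 51.9% (206 bases).

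The hashtags held 305 to 985 cells and 3802839 to 17486618 UMIs, 3548 cells in all, with a median of 7748 to 17370 UMIs per cell. The Lining class of the authors matched its name. The median summed level of 6 lining markers was 62999 CPM (UMIs per 1000000 UMIs of the sum) there, against 1033 to 7952 CPM in the others. That of 7 osteoblast markers was 36307 CPM in the class named Osteoblasts against at most 13395 CPM. Among these markers is Col1a1, which is also listed for sublining fibroblasts. The 8 cartilage markers were highest in Osteoblasts too (16102 CPM), above the class named Chondrocytes (9375 CPM). In Chondrocytes tendon markers were highest (3594 CPM). The names Osteoblasts and Chondrocytes are therefore used here only as the authors' labels. Endothelial markers summed to at most 11.2 CPM and leukocyte markers to at most 17.1 CPM in any hashtag. The 2 fibroblast wells shared 4 cell barcodes. Of the sex-linked genes, Ddx3y on Y stood at 0.160 CPM with mild STA and 28.7 to 53.4 CPM elsewhere, and Xist was at 245 to 815 CPM in all 6.

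In STA, Sfrp1 and Sfrp2 rose and Sfrp4, Frzb and Wif1 fell in the sum over all annotated cells, while Dkk2 and Dkk3 did not pass the test. These are 5 of 7 genes, where 16.1% of 13328 tested genes passed (edgeR quasi-likelihood test with an experiment term, Benjamini-Hochberg adjusted p under 0.05). In sums of this kind, fewer cells that express a gene and less RNA per cell cannot be told apart. All 7 genes had healthy and STA hashtags that did not overlap in CPM, as did 41.2% of all tested genes.

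Sfrp1 (ENSMUSG00000031548, chr8:23411502-23449632, plus strand, mm10) was at 84.7 and 82.6 CPM in the healthy hashtags of experiments 1 and 2. It was at 376 CPM in STA of experiment 1, 302 CPM in mild STA and 422 CPM in severe STA. The 3 STA values lay well above both healthy values, which were nearly equal. Sfrp1 rose by 2.15 on the log2 scale (SE 0.168, edgeR adjusted p = 0.00192), from 83.7 ± 1.53 CPM (SD, n = 2) to 367 ± 60.8 CPM (SD, n = 3). It was past the threshold whichever hashtag was left out (2.03 to 2.27).

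Sfrp2 (ENSMUSG00000027996, chr3:83766321-83774316, plus strand) was at 44.5 and 145 CPM in healthy hashtags, and at 348, 491 and 842 CPM in STA of experiment 1, mild STA and severe STA. The healthy hashtags differed by over 3-fold between the experiments, but both were below every STA value. In the healthy hashtag of experiment 2, 238 of the 550 UMIs came from 1 cell, and without the highest cell of each hashtag the healthy levels were 36.0 and 82.5 CPM. Sfrp2 rose by 2.52 (SE 0.284, edgeR adjusted p = 0.00501). The antisense gene Gm26771 lies over Sfrp2 on the minus strand, and whether the counting used strand is not given in the sources used here. Gm26771 had 1.02 to 16.8 CPM in experiment 1 and 26.3 to 92.5 CPM in experiment 2, and rose by 1.76 (adjusted p = 0.00993). Its part in the Sfrp2 counts was not tested.

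Sfrp4 (ENSMUSG00000021319, chr13:19623104-19632994, plus strand) went the other way from its 2 relatives. It was at 231 and 202 CPM in healthy hashtags and at 82.6, 113 and 109 CPM in STA of experiment 1, mild STA and severe STA. Sfrp4 fell by 1.12 (SE 0.153, edgeR adjusted p = 0.00720), and by 0.85 to 1.47 when each hashtag was left out in turn, past the threshold each time.

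Frzb (ENSMUSG00000027004, chr2:80411970-80447625, minus strand) had the fewest UMIs, 245 over the 6 hashtags. It was at 9.67 and 16.0 CPM in healthy hashtags and at 4.06, 1.60 and 3.81 CPM in STA of experiment 1, mild STA and severe STA, and it fell by 1.94 (SE 0.408, edgeR adjusted p = 0.0241). Wif1 (ENSMUSG00000020218, chr10:121033960-121100650, plus strand) was at 56.0 and 25.8 CPM in healthy hashtags and at 17.2, 15.5 and 12.7 CPM in the same 3 STA hashtags. It fell by 1.27 (SE 0.215, adjusted p = 0.0126). The 2 calls rested on single hashtags: Frzb stood at -1.24 (adjusted p = 0.183) without the healthy hashtag of experiment 2, and Wif1 at -0.89 (adjusted p = 0.0710) without that of experiment 1 and -0.87 (adjusted p = 0.0570) without STA of experiment 1.

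Dkk2 (ENSMUSG00000028031, chr3:132085292-132180304, plus strand) was at 76.6 and 82.8 CPM in healthy hashtags and at 32.4, 64.1 and 76.3 CPM in STA of experiment 1, mild STA and severe STA. The low value of STA in experiment 1 stands apart from both of experiment 2. Its change of -0.66 (SE 0.228) had an adjusted p of 0.0954 in edgeR, and without the healthy hashtag of experiment 2 it was -1.23 (adjusted p = 0.00585). Dkk3 (ENSMUSG00000030772, chr7:112116017-112159057, minus strand) was at 46.6 and 65.7 CPM in healthy and at 90.1, 95.1 and 70.9 CPM in the same 3 STA hashtags, a change of 0.61 (SE 0.193, adjusted p = 0.0768). It was past the threshold without the healthy hashtag of experiment 2 (0.97, adjusted p = 0.0339) or without severe STA (0.76, adjusted p = 0.0237). In the 5 fibroblast classes alone, without Osteoblasts and Chondrocytes, both Dkk genes passed, Dkk3 at 1.28 (adjusted p = 0.00846) and Dkk2 at -0.74 (adjusted p = 0.0342), and Frzb did not (-1.45, adjusted p = 0.0675). That makes 6 of 7 genes, where 18.6% of tested genes passed. In these classes Dkk2 was at 73.9 and 99.6 CPM in healthy and at 33.1, 64.7 and 80.1 CPM in the same 3 STA hashtags, so the groups overlapped.

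**Figure D1:**
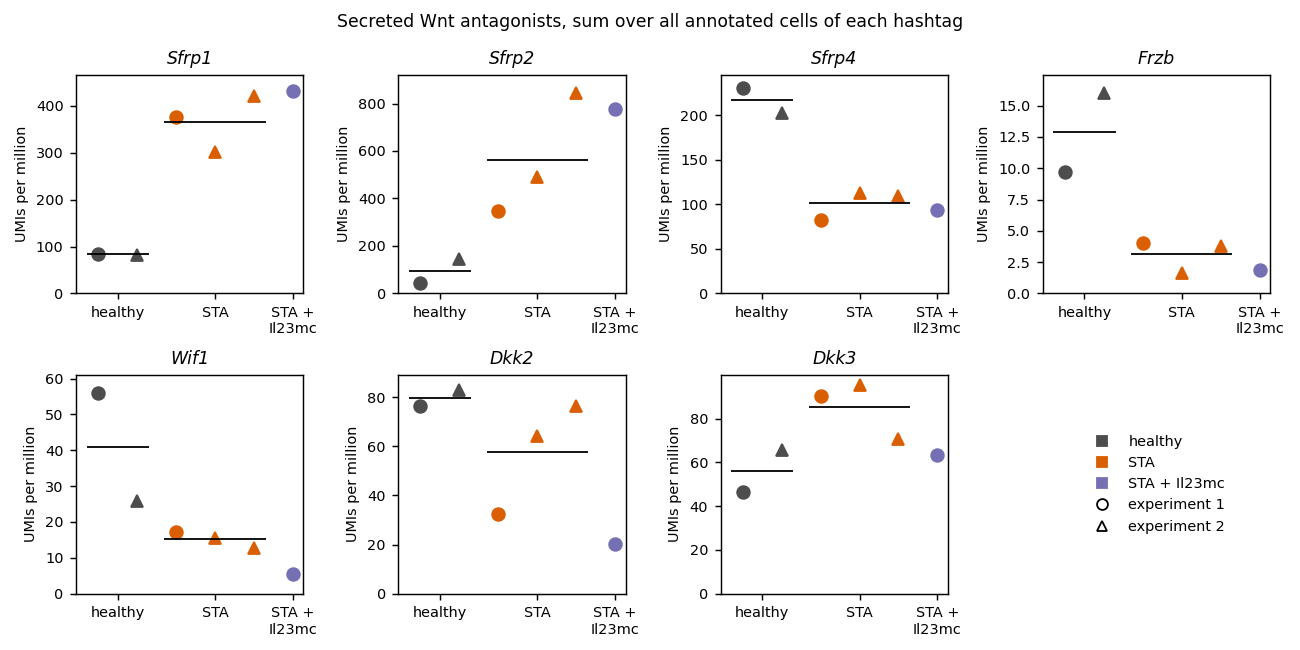
CPM of each gene in the sum over all annotated cells, 1 point per hashtag on a linear axis from 0, with circles for experiment 1, triangles for experiment 2 and lines at the mean of the healthy and of the STA hashtags. For each gene the healthy and STA points do not overlap, with Sfrp1, Sfrp2 and Dkk3 higher and the other 4 lower in STA.

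The makeup of the sorted cells moved with STA. The class that the authors call Mmp3+ held 4.57 and 11.8% of the UMIs in healthy hashtags and 77.2, 64.1 and 55.4% in STA of experiment 1, mild STA and severe STA, while Pi16+ cells fell from 40.2 and 37.3% to 5.21, 10.4 and 13.2%. These shares were set beside the genes by giving the STA class levels the class shares of the healthy hashtag of the same experiment. On that scale Sfrp1 in STA of experiment 1, mild STA and severe STA was at 205, 133 and 170 CPM, between the healthy and the measured levels. With healthy class levels and the class shares of STA it was at 97.6, 131 and 126 CPM.

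Sfrp2 with the healthy class shares was at 242, 183 and 377 CPM in the 3 STA hashtags, above the 44.5 and 145 CPM of the healthy hashtags of the same experiments. Sfrp4 with the healthy class shares was at 160, 131 and 127 CPM, nearer to the healthy levels of 231 CPM (experiment 1) and 202 CPM (experiment 2) than the measured 82.6, 113 and 109 CPM. Its mean difference was then -0.59, against -1.12 in the test on all cells. It was -0.044 with Pi16+ and Il6+ cells alone at equal weight, a mean of mostly opposite changes. In Pi16+ cells Sfrp4 was at 340 and 345 CPM in healthy and at 195, 143 and 53.7 CPM in the 3 STA hashtags. In Il6+ cells it was at 72.0 and 152 CPM against 325, 135 and 310 CPM. There only mild STA was below the healthy hashtag of its own experiment. Wif1 with the healthy class shares was at 53.3, 27.4 and 18.2 CPM, against 56.0 CPM (experiment 1) and 25.8 CPM (experiment 2) in healthy. For Wif1 the difference from healthy, averaged over the experiments on the log2(CPM + 1) scale, was thus -0.13 with equal class shares, against -1.27 in the test on all cells. The 53.3 CPM rests in part on Chondrocytes of STA in experiment 1, where 79 of 88 Wif1 UMIs came from 1 cell. With Pi16+ and Il6+ cells alone at equal weight the difference was -1.87, which rests on single cells as well. In healthy Pi16+ cells 1 cell held 44 of 61 Wif1 UMIs in experiment 1 and 1 held all 12 in experiment 2. In Il6+ cells of experiment 1, 1 cell held 17 of 26 in healthy and 1 held 21 of 26 in STA. Dkk3 with the healthy class shares was at 44.3, 43.7 and 44.3 CPM and had no higher level than in healthy (46.6 and 65.7 CPM). Frzb with the healthy class shares was at 5.04, 2.56 and 5.91 CPM, still below healthy at 9.67 CPM (experiment 1) and 16.0 CPM (experiment 2). The healthy level of Mmp3+ in experiment 1 that enters these values comes from 10 cells.

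**Figure D2:**
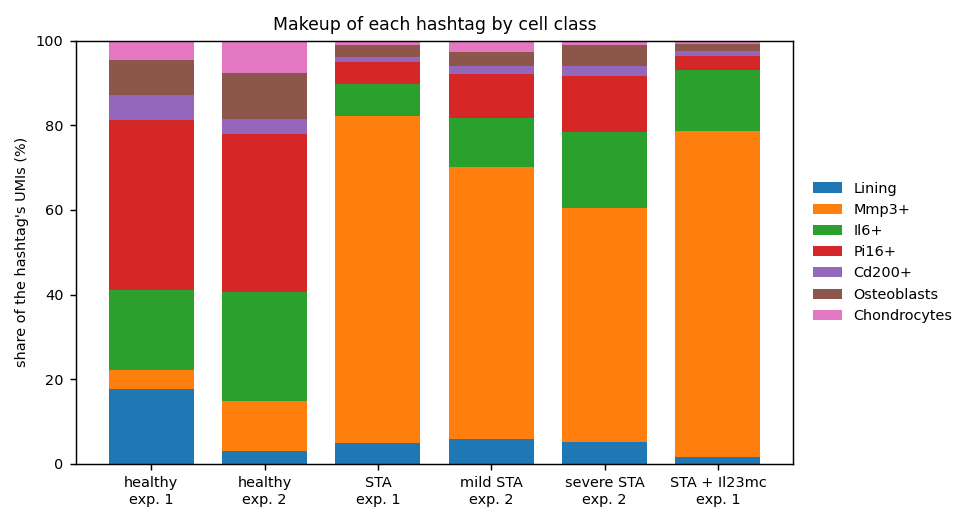
Share of each hashtag's UMIs (%, bars from 0 to 100) held by the 7 cell classes of the authors' table. The Mmp3+ share is 4.57 and 11.8% in the healthy hashtags and 55.4 to 77.2% in the STA hashtags.

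The genes had different places among the 7 classes, which were made from the same cells, so the levels by class are a description with no test. By the median over the 6 hashtags Sfrp1 and Sfrp2 were highest in Mmp3+ cells, the class with most of the UMIs, at 422 CPM (100 to 653) for Sfrp1 and 539 CPM (77.9 to 1303) for Sfrp2. Mmp3+ cells held 84.1% of all Sfrp1 UMIs and 81.0% of all Sfrp2 UMIs, against 63.0% of the UMIs of all genes. These pooled shares are set mostly by the arthritic hashtags: in healthy cells of experiment 1, Mmp3+ held 18 of 333 Sfrp1 UMIs and 4.57% of all UMIs, and in those of experiment 2 it held 35 of 550 Sfrp2 UMIs and 11.8% of all UMIs. In healthy cells of experiment 1 Sfrp1 was higher in Il6+ (159 CPM) than in Mmp3+ (100.2 CPM), and in those of experiment 2 Sfrp2 was higher in Pi16+ (299 CPM) than in Mmp3+ (78.3 CPM). For Sfrp1 the order went on with Il6+ (246 CPM), Cd200+ (86.7), Pi16+ (86.2), Osteoblasts (32.3), Lining (25.8) and Chondrocytes (20.6). For Sfrp2 it went on with Il6+ (303 CPM), Chondrocytes (229), Pi16+ (209), Cd200+ (194), Osteoblasts (18.9) and Lining (5.61).

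Sfrp4 had no single place. Its medians were 206 CPM in Il6+, 198 in Cd200+, 177 in Pi16+ and 95.1 in Osteoblasts, then 66.3 in Mmp3+, 21.4 in Lining and 10.8 in Chondrocytes. The range in Mmp3+ (55.6 to 245 CPM) lay above that in Lining (6.84 to 50.4 CPM), the only pair of neighbours in any of the 7 orders whose ranges did not overlap. In Chondrocytes, 94 of the 105 Sfrp4 UMIs of the healthy hashtag of experiment 1 came from 1 cell.

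By the same median Frzb was highest in Osteoblasts and Wif1 in Chondrocytes. Frzb had medians of 27.2 CPM in Osteoblasts (12.1 to 46.0) and 14.0 in Chondrocytes (0 to 119), against 4.95 in Cd200+, 3.31 in Mmp3+, 1.42 in Pi16+ and 1.31 in Il6+, and no UMI in 158 Lining cells, which allows a share of cells with a UMI of up to 1.90% (counting error only, and no limit on cells that express the gene). Osteoblasts and Chondrocytes held 25.7 and 17.6% of all Frzb UMIs and 3.74 and 1.79% of the UMIs of all genes. Wif1 was at 250 CPM in Chondrocytes (54.9 to 628), 82.3 in Cd200+ and 28.7 in Osteoblasts, and at 6.26 in Il6+, 5.53 in Mmp3+, 3.37 in Pi16+ and 0.588 in Lining. Chondrocytes held 35.3% of the Wif1 UMIs, from 35 of 96 cells. Single cells weigh here: 1 cell held 53 of the 110 Wif1 UMIs of Chondrocytes in healthy cells of experiment 1 (347 CPM without it) and 1 held 79 of 88 in STA of experiment 1 (519.6 CPM with it, 61.1 CPM without). These classes have at least 20 cells in 2 or 3 of the 6 hashtags.

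The Dickkopf genes were high in different classes. Dkk2 was at 106 CPM in Pi16+ (90.4 to 169), 98.8 in Chondrocytes, 87.1 in Il6+, 55.7 in Cd200+ and 24.1 in Mmp3+, and had 1 UMI in 158 Lining cells and 3 UMIs in 127 Osteoblasts. Dkk3 was at 109 CPM in Cd200+ and 102 in Mmp3+ (68.0 to 131), 93.4 in Osteoblasts and 70.9 in Chondrocytes, then 25.4 in Il6+, 21.8 in Pi16+ and 19.6 in Lining. The Dkk3 range in Mmp3+ did not overlap those in Il6+ (13.8 to 49.0 CPM) and Pi16+ (17.1 to 51.5 CPM). Lining fibroblasts were the lowest or next to lowest class for all 7 genes. The highest class was less firm: by the hashtags of experiment 1 alone Dkk2 was highest in Chondrocytes (127 CPM), and by those of experiment 2 alone in Il6+ cells (205 CPM). Sfrp2 was highest in Il6+ cells in experiment 1 alone (560 CPM), and Frzb in Chondrocytes in experiment 2 alone (22.0 CPM). Sfrp4 was highest in Cd200+ in experiment 2 alone (410 CPM), and Dkk3 in Mmp3+ in experiment 1 alone (105 CPM).

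**Figure D3:**
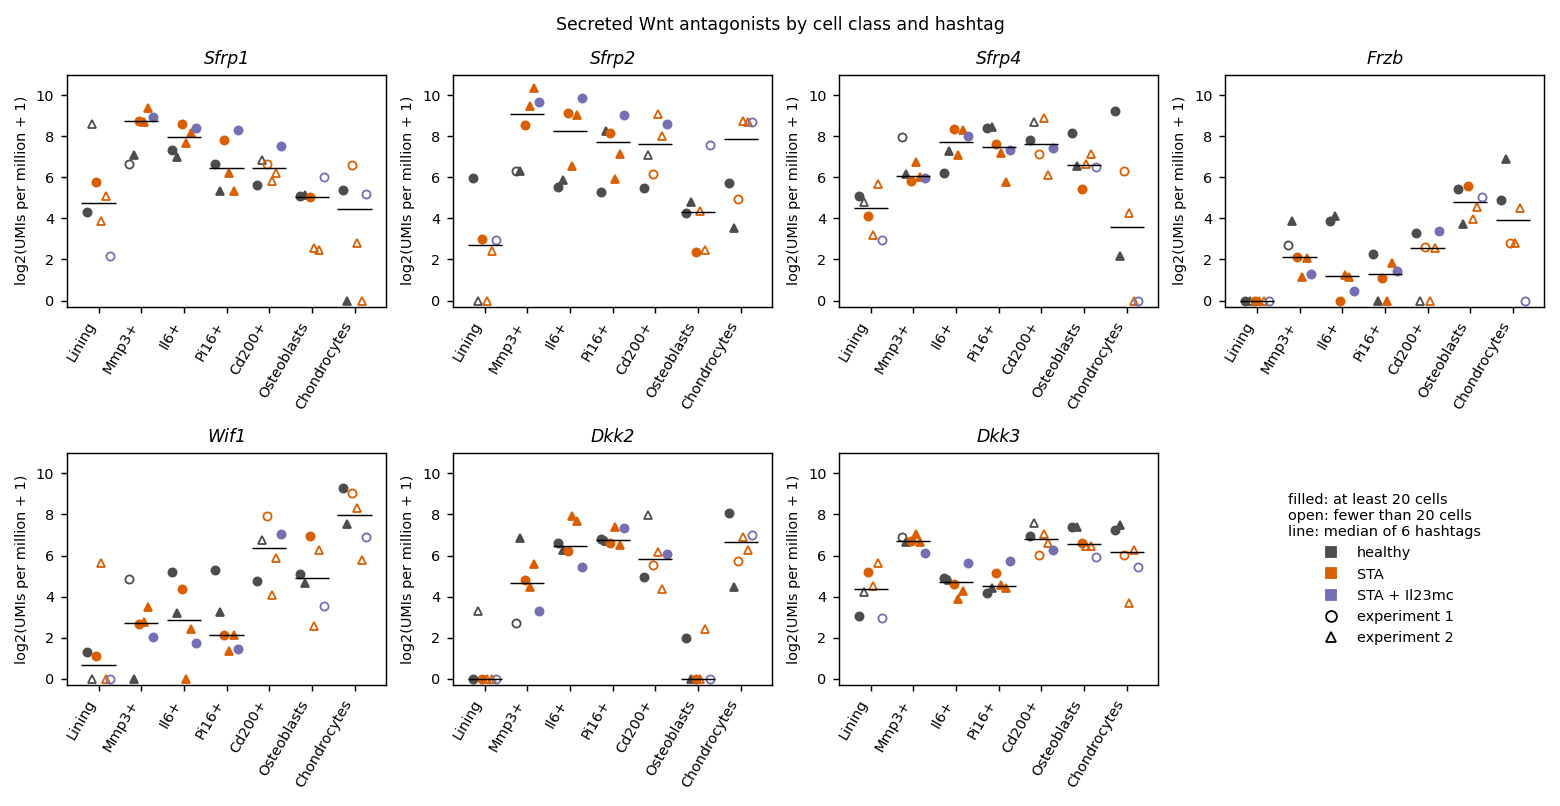
log2(CPM + 1) of each gene by cell class, 1 point per hashtag, with filled points where the class has at least 20 cells in that hashtag, open points where it has fewer, and a line at the median of the 6 hashtags. Sfrp1 and Sfrp2 peak in Mmp3+, Wif1 in Chondrocytes and Frzb in Osteoblasts, and Dkk2 is near 0 in Lining and Osteoblasts.

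Within single classes the test asked whether levels differed between STA and healthy hashtags among cells of 1 class. In Il6+ cells, with 63 to 227 cells per hashtag, Sfrp2 was at 44.8 and 58.0 CPM in healthy and at 560, 93.6 and 513 CPM in STA of experiment 1, mild STA and severe STA. The mild hashtag was far below the other STA hashtags, and 45 of its 68 UMIs came from 1 cell. Without the highest cell of each hashtag mild STA was at 32.9 CPM, between the healthy values of 35.5 and 22.8 CPM, and the change was 3.47 (adjusted p = 0.0129). Sfrp2 rose by 2.83 (SE 0.506, edgeR adjusted p = 0.00776). Sfrp1 was at 159 and 127 CPM in healthy and at 383, 205 and 287 CPM in STA, and rose by 0.99 (SE 0.204, adjusted p = 0.0165). When each hashtag was left out in turn, the change ranged from 2.12 to 3.51 for Sfrp2 and from 0.88 to 1.14 for Sfrp1. The adjusted p of Sfrp2 was far smaller in these fits than with all 6 hashtags. Passing them is therefore no measure of the spread between hashtags.

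Frzb also passed in Il6+ cells, with 10 and 16 UMIs in healthy and 0, 1 and 2 UMIs in STA of experiment 1, mild STA and severe STA (log2 ratio of the pooled UMIs -4.21, 95% counting interval -6.58 to -2.50; edgeR adjusted p = 0.0381). These UMIs came from few cells, 10 of the 16 from 1 cell, and without each hashtag's highest cell Frzb fell under the filter for low counts. The call was also lost without the healthy hashtag of experiment 1 (-3.65, adjusted p = 0.185) or without STA of experiment 1 (-3.63, adjusted p = 0.0947). That makes 3 of 7 genes in Il6+ cells, where 2.21% of 9325 tested genes passed. Sfrp4 in Il6+ cells was at 72.0 and 152 CPM in healthy and at 325, 135 and 310 CPM in STA, so the groups overlapped, and its change of 1.10 did not pass (adjusted p = 0.107). It stood opposite to the fall of Sfrp4 over all cells. Dkk2 (0.62, adjusted p = 0.405), Dkk3 (-0.64, adjusted p = 0.306) and Wif1 (-1.18, adjusted p = 0.307) did not pass either.

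In Pi16+ cells, with 55 to 205 cells per hashtag, Sfrp4 was at 340 and 345 CPM in healthy and at 195, 143 and 53.7 CPM in STA of experiment 1, mild STA and severe STA. It fell by 1.43 (SE 0.301, edgeR adjusted p = 0.0359). The call was lost without mild STA (-1.67, adjusted p = 0.0566) or without the healthy hashtag of experiment 2 (-0.79, adjusted p = 0.127). Wif1 had 61 and 12 UMIs in healthy and 3, 1 and 4 UMIs in STA, and passed (-2.58, SE 0.533, adjusted p = 0.0324). Its healthy UMIs came from 4 and 1 cells, with 44 in 1 cell, and without each hashtag's highest cell it stood at -1.42 (adjusted p = 0.858). The call was also lost without STA of experiment 1 (-1.64, adjusted p = 0.654) or without mild STA (-2.59, adjusted p = 0.0566). With these 2, 2 of the 6 genes tested in Pi16+ cells passed, where 0.891% of 9766 tested genes did.

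Sfrp2 in Pi16+ cells moved in opposite directions in the 2 experiments, from 38.0 to 280.5 CPM in experiment 1 and from 299 CPM to 58.4 (mild) and 137 CPM (severe) in experiment 2. In the healthy hashtag of experiment 2, 238 of the 425 UMIs came from 1 cell, and without it the level was 134 CPM. The fitted change was -0.02 (SE 0.646, edgeR adjusted p = 0.999). Sfrp1 in Pi16+ cells was at 98.7 and 38.8 CPM in healthy and at 227, 73.8 and 39.2 CPM in STA, a change of 0.85 that did not pass (adjusted p = 0.202). Dkk2 (0.07, adjusted p = 0.962) and Dkk3 (0.48, adjusted p = 0.703) did not pass.

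In Mmp3+ cells the test had at least 20 cells in 5 of 6 hashtags, so that the change rests on the 29 healthy cells of experiment 2 against mild and severe STA. The test takes its spread from mild against severe STA, moderated over all genes by edgeR, and assumes that this lone healthy hashtag varies like them. Sfrp1 was at 134 CPM in that healthy hashtag and at 418 and 653 CPM in mild and severe STA, and rose by 2.16 (SE 0.322, edgeR adjusted p = 0.0164). Of its 60 healthy UMIs there 36 came from 1 cell, and without the highest cell of each hashtag the healthy level was 57.9 CPM and the change 3.40. Sfrp2 was at 78.3 CPM against 703 and 1303 CPM and rose by 3.84 (SE 0.449, adjusted p = 0.00650). All 35 healthy Sfrp2 UMIs of this class in experiment 2 came from 1 of the 29 cells. The 10 healthy Mmp3+ cells of experiment 1 had Sfrp1 at 100.2 and Sfrp2 at 77.9 CPM against 426 and 374 CPM in STA of that experiment, and with them in the fit Sfrp1 rose by 2.21 and Sfrp2 by 3.42.

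These were the 2 of 7 genes to pass in Mmp3+ cells, where 2.83% of 12585 tested genes did. Dkk2 was at 114 CPM in the 29 healthy cells and at 21.4 and 47.0 CPM in mild and severe STA, but at 5.57 CPM in the 10 healthy cells of experiment 1 against 26.8 CPM in STA, and did not pass (-1.55, adjusted p = 0.128). Dkk3 was near level, at 117 and 98.4 CPM in healthy and at 105, 131 and 99.4 CPM in STA (0.40, adjusted p = 0.515). Frzb had 7 UMIs in the healthy Mmp3+ cells of both experiments, and Wif1 had 5, all in experiment 1. Sfrp4 (0.47, adjusted p = 0.635) did not pass.

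**Figure D4:**
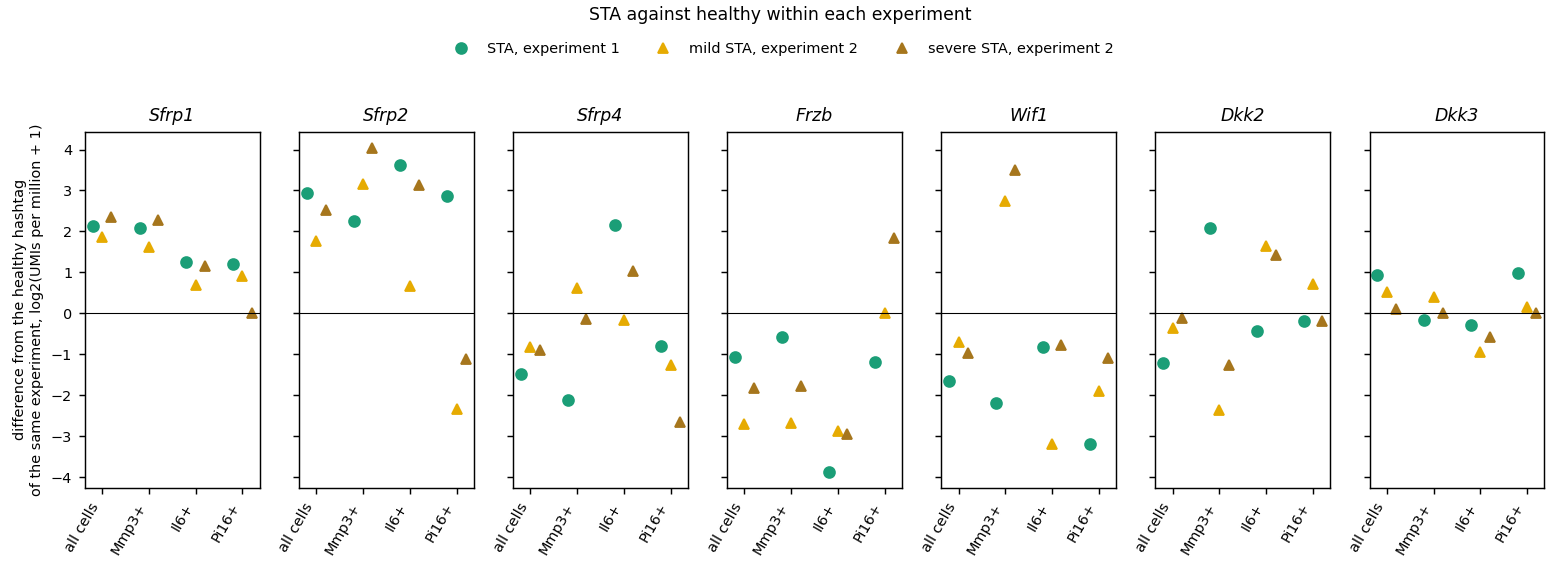
Difference of each STA hashtag from the healthy hashtag of its own experiment, on the log2(CPM + 1) scale, over all cells and within the Mmp3+, Il6+ and Pi16+ classes. Sfrp1 is above 0 throughout, barely so in severe STA within Pi16+ (39.2 CPM against 38.8 CPM in healthy), and Sfrp2 in Pi16+ lies above 0 in experiment 1 and below 0 in both STA hashtags of experiment 2.

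The share of cells with a UMI gave the same picture for Sfrp1 and Sfrp2 with less weight on single cells. Sfrp1 was seen in 26.6 and 25.7% of healthy cells and in 63.7, 48.5 and 49.9% of cells in STA of experiment 1, mild STA and severe STA. With each cell thinned to 1500 UMIs, which left out no cell, these shares were 9.74 and 7.62% against 28.8, 19.7 and 21.7%. Sfrp2 was seen in 9.31 and 12.1% of healthy cells and in 40.9, 38.0 and 37.8% of STA cells, thinned to 4.33 and 5.08% against 19.1, 15.7 and 20.1%. For Sfrp4, whose CPM fell, the shares overlapped, at 27.5 and 28.6% against 26.1, 29.2 and 24.3%. Thinned, they were 13.6 and 13.0% against 8.73, 8.85 and 7.65%. Dkk2 was at 19.5 and 22.2% against 20.9, 24.9 and 28.8%, thinned to 7.79 and 8.57% against 5.08, 9.84 and 9.46%. The shares of Dkk3 rose and those of Frzb fell, as their CPM did, and those of Wif1 overlapped before thinning. Barcodes outside the authors' table that carried endothelial markers and few collagen UMIs numbered 298 and 118 in the 2 wells, with a median of 6866 and 7811 UMIs. Without thinning, they had a Sfrp1 UMI in 3.02 and 4.24% and a Sfrp2 UMI in 4.70 and 1.69%. These values are to be set beside the shares before thinning.

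Within Mmp3+ cells of the 3 STA hashtags 451 of 985 cells held both genes, 251 Sfrp1 alone, 66 Sfrp2 alone and 217 neither. Of the 39 healthy Mmp3+ cells 3 held both, 9 Sfrp1 alone and none Sfrp2 alone. Sfrp2 was the more uneven of the 2: the top 5% of all cells held 67.2% of its UMIs, with up to 493 in 1 cell, against 44.2% and up to 159 for Sfrp1. Sfrp4 resembled Sfrp2 in this (69.6%, up to 156 UMIs), and Dkk3 was the most even (33.9%, up to 23 UMIs). Wif1 UMIs were found in 183 and Frzb UMIs in 133 of 3548 cells.

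For Il23mc there was 1 hashtag, no test was run, and intervals cover counting error only. Sfrp2 was at 778 CPM in STA + Il23mc and 348 CPM in STA of the same well, a log2 ratio of 1.16 (95% counting interval 1.12 to 1.20). It was higher in each of the large classes: 800 against 374 CPM in Mmp3+, 929 against 560 in Il6+ and 531 against 280.5 in Pi16+. Sfrp1 was at 432 against 376 CPM (0.20, 0.15 to 0.25) and Sfrp4 at 93.6 against 82.6 CPM (0.18, 0.08 to 0.28). Wif1 was at 5.49 against 17.2 CPM (-1.64, -1.99 to -1.31), Frzb at 1.83 against 4.06 CPM (-1.15, -1.80 to -0.53), Dkk2 at 20.1 against 32.4 CPM (-0.69, -0.89 to -0.49) and Dkk3 at 63.4 against 90.1 CPM (-0.51, -0.62 to -0.40). Of the 7 genes 3 were past 2-fold, where 3.99% of 10891 genes with at least 50 UMIs in 1 of the hashtags were. Dkk3 was lower in Mmp3+ cells (68.0 against 105 CPM) and higher in Il6+ cells (49.0 against 23.2 CPM).

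Severe and mild STA of experiment 2 could be set side by side in the same way. Sfrp2 was at 842 against 491 CPM (log2 ratio 0.78, 0.72 to 0.84) and Sfrp1 at 422 against 302 CPM (0.48, 0.40 to 0.57). Dkk3 was at 70.9 against 95.1 CPM (-0.42, -0.59 to -0.26), and Dkk2 at 76.3 against 64.1 CPM (0.25, 0.07 to 0.43). For Sfrp4 (-0.06, -0.20 to 0.09) and Wif1 (-0.29, -0.70 to 0.12) the interval included 0, and Frzb had 34 against 10 UMIs (1.25, 0.20 to 2.44). None of the 6 genes with at least 50 UMIs in 1 hashtag was past 2-fold, where 1.74% of 9696 such genes were. Within Il6+ cells Sfrp2 was at 513 against 93.6 CPM (2.46, 2.10 to 2.83), and Sfrp4 in Pi16+ cells was at 53.7 against 143 CPM (-1.41, -1.90 to -0.94). Ddx3y was at 40.7 against 0.160 CPM in these hashtags, and severity and the sex of the mice cannot be told apart here.

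Among the Wnt ligands, 3 of 9 tested genes fell and none rose. Their median log2 change was -1.38 against 0.01 for all tested genes, of which 16.1% passed in either direction. The same 16.1% is the background of the other pathway lists. Wnt10b, which signals through beta-catenin in bone and fat, was at 16.3 and 21.8 CPM in healthy and at 1.74, 8.79 and 7.07 CPM in STA of experiment 1, mild STA and severe STA, and fell by 2.14 (SE 0.387, edgeR adjusted p = 0.0152). Wnt2 fell by 1.54 and Wnt11 by 1.52, and Wnt5a, a ligand that acts mainly without beta-catenin, did not pass (-0.41, adjusted p = 0.248). Among 17 tested receptors and co-receptors there were 5 that rose and 0 that fell (median 0.15). They were the Frizzled Fzd1 (0.76), the Wnt5a receptors Ror1 (1.10) and Ror2 (0.76), and the receptor-like kinases Ptk7 (0.82) and Ryk (0.66), while Lrp6, to which Dkk2 binds, was at -0.00 (adjusted p = 0.995).

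Of 7 tested genes of the R-spondin and Lgr axis, which keeps Wnt receptors at the cell surface, none passed in edgeR at the adjusted threshold (median 0.30). Unadjusted, 3 were under 0.05, as were 4309 of all 13328 tested genes. The ligand Rspo3 was at 0.50 (adjusted p = 0.165) and its receptor Lgr4 at -0.50 (adjusted p = 0.0555). Of 17 signal transducers 1 fell, the repressor Tcf7l1 by 0.88 (adjusted p = 0.0210), with a median of -0.02. Of 14 tested genes listed as targets of beta-catenin 2 rose and 4 fell, with a median of -0.63. The matricellular genes Ccn4 (1.59) and Ccn5 (1.13) rose. The transcription factor Twist2 (-0.85), its relative Twist1 (-0.38), the feedback inhibitor Nkd2 (-0.66) and the proliferation gene Myc (-0.59) fell, and the feedback inhibitor Axin2 was at -0.95 (adjusted p = 0.117). Of 9 tested genes listed as other antagonists 2 rose and 2 fell, with a median of 0.03. Igfbp4, an IGF-binding protein that also binds Wnt receptors, rose by 1.65 from 836 and 643 CPM to 2386, 2192 and 2099 CPM. Draxin, a secreted axon guidance protein that also antagonises Wnt signalling, rose with 2 and 0 UMIs in healthy and 67, 29 and 20 UMIs in STA (log2 ratio of the pooled UMIs 3.79, counting interval 1.91 to 6.85, edgeR adjusted p = 0.0249). Bambi (-0.86) and the heparan sulphate proteoglycan Gpc3 (-1.26) fell. Bambi is in this list although it is a decoy receptor of TGF-beta signalling and not an established Wnt antagonist. Dkk1, Dkk4, Sost and Sfrp5 did not pass the filter on low counts.

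Likeness to other genes was read as Pearson's r of log2(CPM + 1) over the 26 sums of a class in a hashtag with at least 20 cells, among 8890 genes. These points share hashtags and cells, so r is a description with no test. Among the 7 genes, Sfrp1 and Sfrp2 were most alike (r = 0.75), then Frzb and Wif1 (0.70) and Dkk3 and Frzb (0.65), while Sfrp2 and Frzb were the most opposed (-0.55). The 3 genes most like Sfrp1 were Dram1 (0.85), Tspan11 (0.85) and Chl1 (0.84), and those most like Sfrp2 were the overlapping Gm26771 (0.82), Ugcg (0.80) and Serpina3g (0.78). Dkk3 was most like Fmod (0.92), a collagen-binding proteoglycan of tendon, Kcnma1 (0.90) and the cartilage collagen Col11a1 (0.88). Frzb was most like Lmna (0.83), Serpine2 (0.83) and the cartilage protein Chad (0.82), and Wif1 most like Nucb2 (0.79), Samd4 (0.78) and Srsf7 (0.77). Dkk2 was most like Gm10115 (0.92), Celf2 (0.91) and Myoc (0.90), and Sfrp4 most like Ep400 (0.77), C1qtnf2 (0.76) and Flrt2 (0.74).

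In the wells of sorted innate lymphoid cells (ILCs), 6 of the 7 genes were near 0. Over 1635, 1553 and 1303 annotated ILCs, Sfrp1 had 0, 10 and 0 UMIs, Sfrp2 0, 1 and 1, and Dkk2 none. Dkk3 was the exception, at 2.78 CPM in healthy ILCs of experiment 1, 13.8 CPM in those of STA + Il23mc mice and 2.55 CPM in the cells of experiment 2. In the class ILC2-3 it was at 13.0, 40.6 and 5.42 CPM, from 13, 42 and 7 UMIs. That class was the highest in healthy ILCs of experiment 1 and in STA + Il23mc. In experiment 2 the class Precursors was slightly higher, at 5.59 CPM from 4 UMIs. These wells held different conditions in different wells, so the condition and the well cannot be told apart.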

How the data were processed

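The authors deposited raw UMI counts per barcode and gene on mm10. Their matrix headers name Cell Ranger 6.1.2 as the counter, whereas version 6.0.6 stands in the submitters' processing notes. The authors' cell table gave each cell's hashtag and class and its mitochondrial fraction as deposited; the tools behind it are not given in the sources used here. Of 1120 table cells of experiment 2, 1117 were in the matrix, and all 2431 of experiment 1. No doublet call was made here, and nothing states how doublets were treated by the authors. Counts were summed per hashtag, over all cells or within a class with at least 20 cells, and tested with edgeR 4.0.16 (R 4.3.3; TMM, filterByExpr, quasi-likelihood, group plus experiment, all 6 hashtags, Benjamini-Hochberg over all tested genes, threshold 0.05), after a check on simulated data. The experiment term pairs hashtags of 1 well, as labelled. Levels are CPM (counts per 1000000 UMIs of the sum), with a pseudocount of 1 on log scales. Ratios of 1 hashtag to another carry exact 95% counting intervals (scipy 1.17.1), which cover counting error only. DESeq2 1.42.0 and other settings were alternatives, as were all barcodes with at least 1500 UMIs, at most 10% mitochondrial counts and a hashtag called by HTODemux (Seurat 5.3.0, quantile 0.99). The healthy class shares, the 10-cell healthy hashtag of Mmp3+ and the sums without single cells were chosen after seeing the data. Gene positions are those of GENCODE M21, and promoter windows are those of RefSeq up to the GENCODE start. Of each pathway list up to 4 genes past the threshold with the largest change were named, or the 2 with the highest level where none passed. Wnt5a, Lrp6, Ryk, Axin2, Twist1, Myc and the 4 genes under the filter were named after their values were seen, as were the marker values. The members and lists were chosen with earlier results of these data known. The ILC well of STA mice without Il23mc is not used here.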

Additional observations from a re-analysis of the deposited data

Results flagged for a closer look

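Only genes with at least 10 UMIs of the class in every healthy and STA hashtag were looked at. Among these, the changes of 3 genes within a class went in opposite directions in the 2 experiments, and these differences between experiments were not tested. Under that count, Dkk2 and Wif1 in Mmp3+ cells also changed direction, with 1 Dkk2 UMI in healthy of experiment 1 and 0 Wif1 UMIs in healthy of experiment 2. Sfrp2 in Pi16+ cells stood at a log2 ratio of STA to healthy of 2.89 in experiment 1, and at -2.36 in mild and -1.13 in severe STA of experiment 2. Dkk2 in Il6+ cells stood at -0.43 in experiment 1, and at 1.66 in mild and 1.43 in severe STA. Dkk3 in Mmp3+ cells stood at -0.16 in experiment 1, where the healthy level comes from 10 cells, and at 0.41 in mild and 0.014 in severe STA.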

How the results depend on the processing

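Over all cells, Sfrp1 and Sfrp4 kept their direction and their call under every alternative that gave a test, and Sfrp2 under all but 1. Without the experiment term (the replicate block), 335 genes passed in place of 2151. Sfrp2 (2.57, adjusted p = 0.0642), Frzb (-1.95) and Wif1 (-1.44) then did not pass. Without it, 0 genes passed in Pi16+, 2 in Il6+ and 62 in Mmp3+ cells in place of 87, 206 and 356, and Sfrp1 and Sfrp2 lost their calls in Il6+ and Mmp3+ cells. In Pi16+ cells 545 genes then had an unadjusted edgeR p under 0.05, and no other tool was run at this setting. With no filter on low counts, 3504 genes passed over all cells, 285 in Pi16+, 469 in Il6+ and 1152 in Mmp3+ cells, and Dkk2 (-0.63) and Dkk3 (0.65) passed over all cells. In that fit over all cells Sfrp2 had an edgeR adjusted p of 1.06e-70 at a change of 2.56, against 0.00501 at 2.52 with the filter. Passing without the filter, as Dkk2 and Dkk3 did, is therefore no measure of the spread between hashtags. With all barcodes that had a hashtag call, 1276 genes passed, and Frzb (-1.81) and Wif1 (-1.03) did not. In the fibroblast classes alone Dkk2 (-0.74) and Dkk3 (1.28) passed and Frzb (-1.45) did not.

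When each hashtag was left out in turn, 715 to 2033 genes passed over all cells, 89 to 258 in Pi16+ and 269 to 472 in Il6+ cells. The changes over all cells ranged from -1.23 to -0.22 for Dkk2, 0.32 to 0.97 for Dkk3, -2.52 to -1.24 for Frzb and -1.69 to -0.87 for Wif1. In Pi16+ cells Sfrp2 ranged from -1.59 to 2.90 and Dkk2 from -0.20 to 0.25, and in Il6+ cells Dkk2 from -0.55 to 1.47. Without each hashtag's highest cell Sfrp1 in Mmp3+ cells was at 3.40 in place of 2.16, and Sfrp2 in Pi16+ cells was at 0.41 and Dkk2 at -0.067. With the 10-cell healthy hashtag, 792 genes passed in Mmp3+ cells, and Sfrp4 (-0.64) and Wif1 (-0.11) turned. Leaving out hashtags in Mmp3+ cells could not be fitted.

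With Pi16+ and Il6+ cells alone at equal weight, which leaves out Mmp3+ and the other classes, the log2(CPM + 1) difference was 0.96 for Sfrp1 and 1.66 for Sfrp2. It was -0.044 for Sfrp4, -1.87 for Wif1, 0.30 for Dkk2 and 0.0027 for Dkk3. The values of Sfrp4 and Wif1 carry the limits given with them above. With the healthy class shares, over all classes, the difference was 1.06, 1.64, -0.59, -0.13, 0.059 and -0.32 in the same order. These values have no test. In experiment 1 alone Frzb was at -1.08, its median in Osteoblasts at 42.3 CPM and that of Wif1 in Chondrocytes at 519.6 CPM, the value of STA, where 1 cell held 79 of 88 UMIs (61.1 CPM without it). In both comparisons of single hashtags that follow, equal weight was given to Mmp3+, Il6+ and Pi16+ cells. For STA + Il23mc against STA, equal weight turned Dkk3 (0.33) and Sfrp4 (-0.16) and gave 0.15 for Sfrp1, 0.91 for Sfrp2 and -0.0058 for Frzb. The fibroblast classes alone gave -1.02 for Wif1. For severe against mild STA, equal weight turned Dkk2 (-0.012) and gave -0.062 for Dkk3, 0.077 for Sfrp1, 1.52 for Sfrp2, -0.32 for Sfrp4 and 1.32 for Wif1, and the fibroblast classes alone gave 0.24 for Wif1. The cause of these shifts was not tested. Depth limits Frzb and Wif1, with 245 and 920 UMIs in all.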
